A study of Mus musculus with 3 samples.

Results

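The genes described here encode Wnt ligands, their Frizzled receptors and Lrp co-receptors, secreted antagonists of the Sfrp, Dkk and Wif1 kind, the β-catenin and Axin proteins, the Tcf/Lef factors and a few genes known to respond to Wnt. They were taken from the gene name column of the arrays, as every name starting with Wnt, Fzd, Sfrp or Dkk and a number, plus Lef1, Tcf7, Tcf7l2, Axin1, Axin2, Lrp5, Lrp6, Wif1, Wisp1, Wisp2, Porcn, Sp5 and Ctnnb1. This rule reads names and no measured value, but it was set with earlier results of these data known. It gave 50 of the 27962 gene names on the array. RNA of untreated mouse ES cells, grown with serum and leukemia inhibitory factor, was compared with RNA of mouse embryonic fibroblasts (MEF), grown in a serum medium. No strain, genotype, line or passage was given for either, nor whether the ES cells grew on feeder cells. Each of 3 two-colour arrays held 1 ES cell replicate in Cy3 and MEF RNA in Cy5; the design text once calls the Cy5 sample mix2, where the title and sample labels say MEF, and the labels were followed.

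Wnt proteins are secreted lipid-modified signals. At a receiving cell they bind a Frizzled receptor together with Lrp5 or Lrp6, which keeps the destruction complex built on Axin from marking β-catenin for degradation, so that β-catenin enters the nucleus and acts with Tcf/Lef factors on target genes. Other Wnt proteins signal through Frizzled and Ror receptors without β-catenin and act on cell polarity and movement. In mouse ES cells, β-catenin signalling is known to favour self-renewal.

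All ratios below are ES cells over MEF on the log2 scale, and negative ones mean less signal in ES cells. A gene was called when limma's adjusted p was under 0.05 and its ratio was at least 2-fold, which is 1 on the log2 scale. The fold minimum decides most calls, since 95.4% of the 19663 genes tested had an adjusted p under 0.05. Correlations of log2 ratios between arrays were 0.998 for every pair, across genes, which are not independent replicates. Whether the ES cell replicates were grown apart is not stated, and the p-values therefore speak of the spread among these 3 arrays, possibly a technical one. The MEF side was treated as a single control whose own spread is left out, no dyes were swapped, and all arrays lay on 1 slide, so a dye effect on a single probe and a slide effect cannot be told apart from the difference between the cells.

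The labels matched their markers. All 12 ES cell markers were called higher in ES cells, among them Pou5f1 at 3.75 ± 0.055 and Nanog at 4.02 ± 0.028 (log2, SD, n = 3 arrays). All 12 fibroblast markers were called lower, among them Col1a1 at -8.10 ± 0.015 and Thy1 at -2.52 ± 0.026. Both marker lists were also above background in the other channel. Macrophage markers moved with the fibroblast side, and all 10 were called lower in ES cells. Their summed normalised signal was 10737 to 11221 in ES cells against 488493 to 521516 in MEF. Lyz2, with mean signals of 4701 in ES cells and 339855 in MEF, made up most of the MEF sum. Other marker lists, apart from the epithelial one, had markers called in both directions. The sums of all these lists over different probes rest on a few bright genes. Of 6 primitive endoderm markers tested, Gata6, Dab2 and Sparc were called lower in ES cells, Lama1 was called higher at 1.97, and Sox17 and Gata4 were not called. Their sum was 14359 to 15099 in ES cells against 412264 to 435788 in MEF, most of it Sparc, with mean signals of 6204 and 385372. Of 4 muscle markers tested, Acta1 and Des were called lower, Tnnt1 was called higher at 2.00 and Myod1 was not called, with a sum of 8466 to 8568 in ES cells against 39720 to 40847 in MEF. Acta1, with mean signals of 2605 and 36195, made up most of the MEF sum, and Myf5 was not above background in either. Among neural and glial markers, Sox10, Nes and Gfap were called lower, Pax6 was called higher at 1.60, and Tubb3 was not called. Nes had mean signals of 3571 in ES cells and 29133 in MEF, and Olig2 was not above background in either. Of 5 endothelial markers tested, Pecam1 at 2.59 and Tek at 2.11 were called higher in ES cells, Kdr at -1.40 and Emcn at -2.58 lower, and Esam was not called. Their sum was 3408 to 3448 in ES cells against 2261 to 2326 in MEF, and Cdh5 and Tie1 were not above background in either. Of 6 epithelial markers tested, Cdh1, Epcam, Krt8 and Krt18 were called higher, and Krt5 and Krt14 were not called, with a sum of 68409 to 69312 in ES cells against 5508 to 5803 in MEF and Trp63 not above background in either. The part of these other cells in the ratios below was not tested, and in such bulk RNA fewer cells of a type and less RNA per cell cannot be told apart.

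Of the 50 Wnt pathway genes, 45 were well above background in ES cells or in MEF on all 3 arrays and entered the test. Among them 27 were called, 20 of them lower and 7 higher in ES cells, and 18 were not called. Over all genes tested, 42.8% were called, 22.4% lower and 20.3% higher, while among the Wnt pathway genes 44.4% were called lower and 15.6% higher. Genes called lower by at least 4-fold were 12 of the 45, or 26.7%, where all genes gave 9.58%, and genes called higher by at least 4-fold were 3, or 6.67%, where all genes gave 6.72%. The median ratio was -0.53 for the Wnt pathway genes and -0.05 for all genes. Because a gene detected in 1 cell type alone enters the test through its high side, the 40 Wnt pathway genes above background in both cell types were also counted alone, and 18 of these were called lower and 5 higher, where 22.4% and 19.7% of all genes passing the same filter were.

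**Figure D1:**
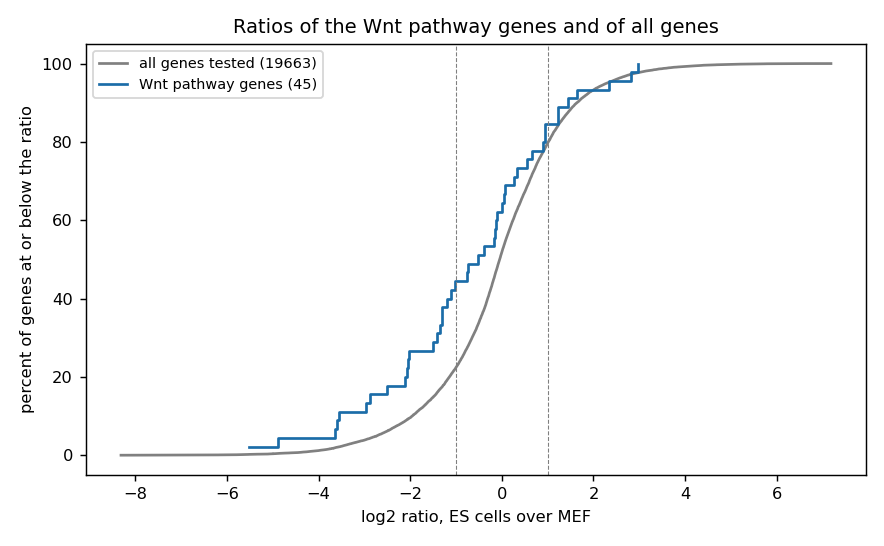
Cumulative distribution of log2 ratios, ES cells over MEF (horizontal axis), as the percent of genes at or below each ratio (vertical axis), for the 45 Wnt pathway genes tested and for all 19663 genes tested; dashed lines mark 2-fold. The Wnt pathway curve lies above that of all genes on the negative side, where 44.4% of its genes were called lower against 22.4% of all genes.

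**Figure D2:**
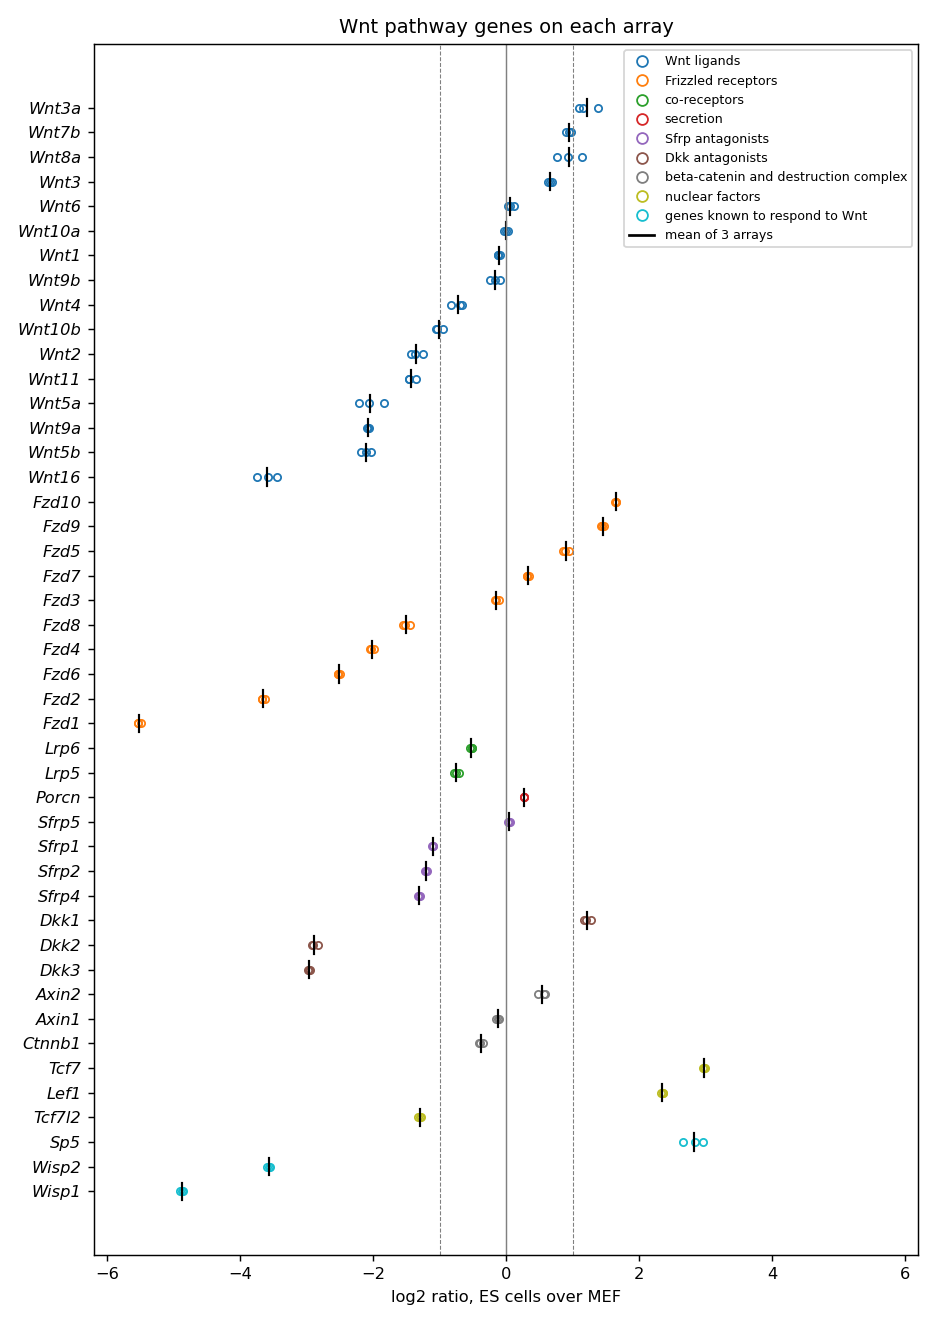
Log2 ratio of each of the 45 tested Wnt pathway genes, ES cells over MEF (horizontal axis), with 1 circle for each array, a black bar for the mean of 3 arrays, colours for roles, and dashed lines at 2-fold. Ratios run from -5.52 for Fzd1 to 2.98 for Tcf7, and the circles of a gene mostly overlap.

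Of 19 Wnt ligand genes, 16 were tested, and 7 were called lower in ES cells, 1 higher and 8 not. Over all genes, 22.4% were called lower and 20.3% higher. Those called lower were Wnt5a, Wnt5b and Wnt11, all known for signalling without β-catenin, and also Wnt16, Wnt9a, Wnt2 and Wnt10b. Wnt16 had the lowest ratio of the ligands. Its normalised signal was 133, 115 and 124 in ES cells, against 1448, 1541 and 1485 in MEF. The ES signals were thus far below those of MEF on every array, and the probe was well above background in ES cells on only 2 of 3 arrays. The ratio was -3.59 ± 0.15 (log2, SD, n = 3 arrays), with an adjusted p of 2.25e-06 (limma), and processed signals gave -4.65.

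Wnt5b, a non-canonical ligand, had signals of 399, 384 and 433 in ES cells and 1714, 1748 and 1772 in MEF. Wnt9a, a ligand known from joint and cartilage development, had 681, 661 and 646 in ES cells and 2854, 2805 and 2745 in MEF. Wnt5a, the main non-canonical ligand of mesenchyme, had 198, 165 and 173 in ES cells and 711, 766 and 725 in MEF. The ratios of these 3 genes were -2.11 ± 0.076, -2.08 ± 0.011 and -2.04 ± 0.19. Their adjusted p-values were 1.65e-06, 1.97e-07 and 2.76e-05 (limma), and processed signals put Wnt5a at -2.62. Wnt11, another ligand of cell movement, stood at -1.43 ± 0.060 and Wnt2 at -1.35 ± 0.086. Wnt10b was well above background only in MEF, with 179, 197 and 187, against 92.4, 95.5 and 91.1 in ES cells. Wnt10b was lower in ES cells by at least 1.72-fold. For this bound a dim signal was raised, array by array, to the faintest signal still well above background wherever it lay under that. The measured ratio of Wnt10b, -1.01 (adjusted p = 5.16e-06, limma), sat at the edge of the fold minimum. It came to -0.998 without replicate 2 and was -3.22 in the processed signals of the scanner software.

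Wnt3a, which acts through β-catenin in the early embryo, was the ligand called higher. It was well above background only in ES cells, with signals of 229, 210 and 250, against 107, 80.4 and 112 in MEF. This made Wnt3a higher in ES cells by at least 2.07-fold, a bound in which only the MEF signal of replicate 2 was raised. In replicates 1 and 3 the faintest MEF signals of any probe well above background were 48.5 and 53.8. Wnt3a lay over these and was kept as measured, so the bound is near the measured 2.32-fold. It does not rest on a detection limit of this probe. The adjusted p of 8.13e-05 (limma) belongs to the measured log2 ratio of 1.22, and processed signals gave a log2 ratio of 3.05. Wnt8a was also detected only in ES cells, with 194, 197 and 172, against 115, 104 and 78.4 in MEF. Its mean ratio of 0.94 ± 0.19 missed the fold minimum, and it came to 1.03 without replicate 1 and to 2.54 with processed signals, both called. Wnt7b at 0.94 ± 0.043 and Wnt3 at 0.66 ± 0.035 were not called either, though processed signals put them at 1.25 and 1.10, also called. The remaining ligands tested were not called: Wnt4 had a ratio of -0.73 (-1.08, called lower, with processed signals), Wnt9b of -0.17, Wnt1 of -0.11 and Wnt10a of -0.005, the last with a 95% interval of -0.05 to 0.04. Wnt6 stood at 0.06 by its brightest probe.

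Wnt2b and Wnt8b were not well above background on any array in either cell type, and Wnt7a was so on 2 arrays in MEF and on none in ES cells. Their signals were 96.9 to 130 in ES cells and 94.1 to 135 in MEF, so these arrays give no ratio for them. Porcn, the acyltransferase that puts the lipid on Wnt proteins, differed little, with signals of 3429, 3356 and 3303 in ES cells against 2854, 2775 and 2739 in MEF and a ratio of 0.27 ± 0.0049 that was not called.

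All 10 Frizzled receptor genes were above background in both cell types on every array. Of these, 5 were called lower in ES cells, against 22.4% of all genes, and 2 higher, a share close to the 20.3% of all genes. Fzd1 had the lowest ratio of any Wnt pathway gene. Its signals were 1917, 1840 and 1832 in ES cells, against 86479, 85629 and 84998 in MEF. That is a 46.0-fold difference, with a log2 ratio of -5.52 ± 0.025 (SD, n = 3 arrays) and an adjusted p of 1.65e-07 (limma), and the gene was still detected in ES cells. Its probe lies on chromosome 5 from 4760009 to 4760068 in the files' build, mm7. Whether a probe falls in coding or untranslated sequence was not determined, as mm7 gene models were not used here.

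Fzd2, a receptor that Wnt5a can use, followed with 4936, 4795 and 4796 in ES cells and 60968, 60932 and 61007 in MEF. Its ratio was -3.65 ± 0.024, and a dimmer probe gave -4.11 ± 0.035. Fzd6, known for planar polarity, had 686, 674 and 684 in ES cells and 3943, 3901 and 3871 in MEF. Its ratio was -2.52 ± 0.017. Fzd4, the receptor of Norrin as well as of Wnt, had 1330, 1342 and 1287 in ES cells and 5282, 5550 and 5265 in MEF, for a ratio of -2.02 ± 0.030. The adjusted p-values of these receptors were 1.65e-07, 1.81e-07 and 3.39e-07 (limma). Fzd8 stood at -1.51 ± 0.052 and was likewise called lower.

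The Frizzled genes called higher in ES cells were Fzd10 and Fzd9. Fzd10 had 7060, 7153 and 7157 in ES cells and 2267, 2267 and 2288 in MEF, a ratio of 1.65 ± 0.0098. Fzd9 had 2018, 1946 and 1948 in ES cells and 727, 715 and 722 in MEF, a ratio of 1.45 ± 0.021. Fzd5, at 0.89 ± 0.052, was not called, but it passed the fold minimum under 4 of 12 other settings, at up to 1.22. Fzd3 was not called at -0.15, and Fzd7, a receptor known from human and mouse pluripotent cells, was not called at 0.32 by its brightest probe. The co-receptors Lrp5 at -0.75 ± 0.034 and Lrp6 at -0.53 ± 0.019 were not called.

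**Figure D3:**
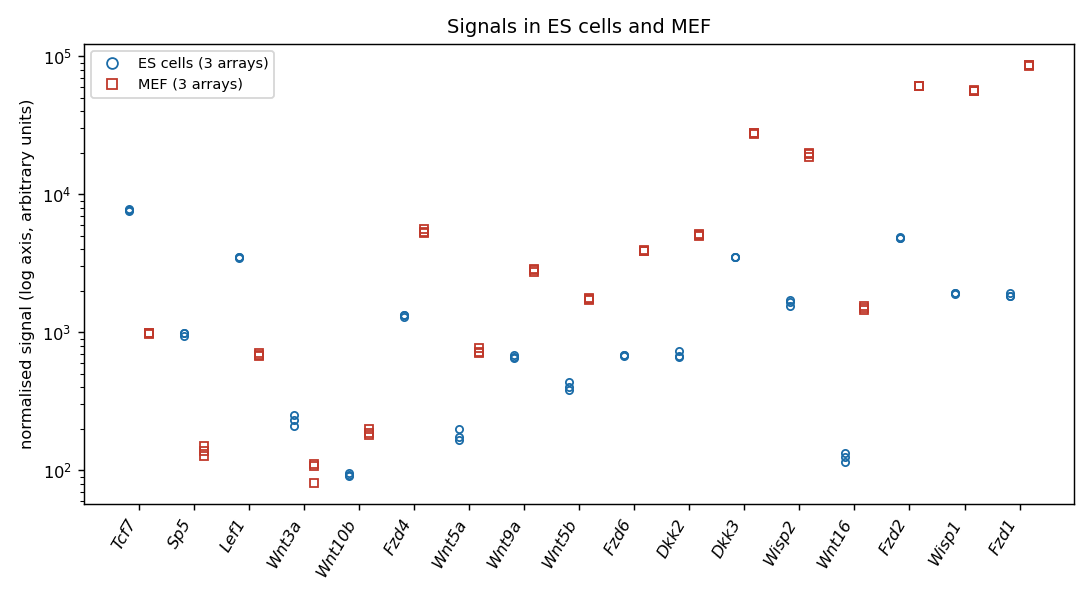
Normalised signal (vertical log axis, arbitrary units) on each of 3 arrays for the 17 Wnt pathway genes called at 4-fold or more or called with signal in 1 cell type alone, with ES cells as circles on the left and MEF as squares on the right of each gene. The 3 circles and the 3 squares of each gene are apart, which follows from choosing the genes by their ratios. Tcf7, Sp5, Lef1 and Wnt3a are higher in ES cells. Signals of different genes come from different probes and are not comparable.

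Among secreted antagonists tested, 2 of 3 Dkk genes and 3 of 4 Sfrp genes were called lower in ES cells, against 22.4% of all genes. The remaining Dkk gene was called higher. Of the Dkk family, whose first and best known member blocks Lrp5 and Lrp6, 3 genes were tested and all were called, against 42.8% of all genes. Dkk3, a divergent member, had 3522, 3524 and 3523 in ES cells and 27328, 27552 and 27744 in MEF, for a ratio of -2.97 ± 0.011. Dkk2 had 729, 666 and 668 in ES cells and 5176, 5039 and 5002 in MEF, for a ratio of -2.88 ± 0.050. The adjusted p-values were 1.65e-07 and 3.23e-07 (limma). Dkk1 went the other way, with 369, 364 and 360 in ES cells and 161, 161 and 149 in MEF and a ratio of 1.22 ± 0.050 by its brightest probe, or 2.01 with processed signals. Its other probe stood at -0.04 ± 0.062 and was not called, and the mean of the probes, 0.59, was not called either. Dkk4 was not above background on any array, with signals of 75.6 to 86.5 in ES cells and 70.5 to 75.1 in MEF.

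Sfrp proteins carry a Frizzled-like domain and bind Wnt outside the cell. Sfrp4 at -1.31 ± 0.013, Sfrp2 at -1.20 ± 0.017 and Sfrp1 at -1.11 ± 0.012 were called lower in ES cells, and Sfrp5 at 0.04 ± 0.013 was not called. Sfrp1 had bright signals in both cell types, 6609, 6675 and 6712 in ES cells against 14338, 14245 and 14430 in MEF. Sfrp1 was no longer called with median centring (-0.83), with processed signals or in the authors' table (-0.96 in both), and Sfrp2 was not called with median centring (-0.93). Wif1, another secreted Wnt-binding inhibitor, was well above background in MEF on 2 arrays and in ES cells on none, with signals of 115 to 122 in ES cells and 129 to 135 in MEF.

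None of the 3 genes of the β-catenin and Axin core was called, where 42.8% of all genes were. Ctnnb1, which encodes β-catenin, had 66778, 64489 and 63664 in ES cells and 85085, 84525 and 84081 in MEF, and its ratio of -0.38 ± 0.027 was not called. Axin1, the scaffold of the destruction complex, stood at -0.13 ± 0.028 and was not called, with a 95% interval of -0.17 to -0.08. Axin2, which is both a scaffold and a widely used target of β-catenin, had 672, 644 and 635 in ES cells and 483, 435 and 423 in MEF. The Axin2 ratio of 0.54 ± 0.060 missed the fold minimum (adjusted p = 6.99e-05, limma) and stayed between 0.52 and 0.72 under the 12 other settings.

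The 3 nuclear Tcf/Lef factors taken by the name rule were all called, in different directions, where 42.8% of all genes were called in either direction. Tcf7l1, listed as Tcf3 on the arrays and not taken by that rule, stood at 0.50 ± 0.010 and was not called. Tcf7 (Tcf1) had the highest ratio of the Wnt pathway genes, with 7805, 7723 and 7614 in ES cells and 989, 968 and 982 in MEF. Lef1 had 3532, 3455 and 3493 in ES cells and 706, 674 and 680 in MEF. Tcf7l2 (Tcf4), by contrast, had 3940, 4042 and 3925 in ES cells and 9660, 9798 and 9819 in MEF. Their ratios were 2.98 ± 0.021, 2.35 ± 0.020 and -1.30 ± 0.023 (log2, SD, n = 3 arrays), with adjusted p-values of 1.76e-07, 2.06e-07 and 6.71e-07 (limma). The Tcf7 probe lies on chromosome 11 from 52209369 to 52209428 and the Lef1 probe on chromosome 3 from 131060609 to 131060668 in mm7. Dimmer probes gave smaller ratios, 1.51 ± 0.024 for Tcf7 and 0.98 ± 0.024 for Lef1, of which that of Lef1 was not called. With all probes averaged Tcf7 stood at 2.24 and Lef1 at 1.66, both called, and Tcf7l2 at -0.76, not called.

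The genes known to respond to Wnt went both ways as well. Sp5, a zinc finger factor and direct β-catenin target in mouse ES cells, had 988, 979 and 943 in ES cells and 139, 126 and 149 in MEF. Its ratio was 2.82 ± 0.15 (adjusted p = 4.70e-06, limma), and its probe was well above background in MEF on 1 of 3 arrays. Since MEF signal was near background on the other arrays, the size of the ratio is less certain, and it ran from 2.75 to 4.09 over 11 other settings, the highest with processed signals. Wisp1, now named Ccn4, a matricellular protein gene first found as a Wnt1-induced gene in mouse cells, had 1904, 1920 and 1923 in ES cells and 55880, 57297 and 56019 in MEF. Wisp2, now Ccn5, had 1647, 1703 and 1536 in ES cells and 19448, 19865 and 18503 in MEF. Wisp1 was thus 29.4-fold lower and Wisp2 11.8-fold lower in ES cells, with ratios of -4.88 ± 0.018 and -3.57 ± 0.023 and an adjusted p of 1.65e-07 for each (limma). Both encode secreted proteins of connective tissue.

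Promoter windows of the 3 genes called higher by at least 4-fold are shown, a set picked by its ratios. Tcf/Lef proteins are known to bind a short DNA element, which was looked for in each. Each window runs from 250 bases before to 50 after a RefSeq start (GRCm38.p6), the farthest upstream one where several are listed. Sp5 lies at chr2:70474673-70474972 on the plus strand, Tcf7 at chr11:52282965-52283264 on the minus strand and Lef1 at chr3:131110047-131110346 on the plus strand. Capitals mark the Tcf/Lef core, searched on both strands as CTTTGAA or CTTTGAT and as CTTTGTA or CTTTGTT.
Sp5: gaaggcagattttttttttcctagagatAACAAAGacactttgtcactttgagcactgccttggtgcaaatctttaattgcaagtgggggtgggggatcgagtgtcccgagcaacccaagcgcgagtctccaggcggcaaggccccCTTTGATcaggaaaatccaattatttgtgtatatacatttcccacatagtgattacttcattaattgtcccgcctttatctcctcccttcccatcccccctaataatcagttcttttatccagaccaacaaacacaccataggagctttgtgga
Tcf7: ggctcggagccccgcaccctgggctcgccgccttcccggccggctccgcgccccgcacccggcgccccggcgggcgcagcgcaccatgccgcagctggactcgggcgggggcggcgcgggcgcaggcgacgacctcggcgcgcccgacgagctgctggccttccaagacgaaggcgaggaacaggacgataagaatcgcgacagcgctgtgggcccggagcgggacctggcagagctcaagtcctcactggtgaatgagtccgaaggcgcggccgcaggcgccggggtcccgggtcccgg
Lef1: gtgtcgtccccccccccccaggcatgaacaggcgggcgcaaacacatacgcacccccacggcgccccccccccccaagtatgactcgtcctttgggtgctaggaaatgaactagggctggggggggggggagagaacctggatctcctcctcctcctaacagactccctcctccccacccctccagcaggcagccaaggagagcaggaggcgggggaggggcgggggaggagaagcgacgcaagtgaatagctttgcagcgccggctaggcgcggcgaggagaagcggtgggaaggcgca

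The Sp5 window holds 2 matches and the other windows printed hold 0. The Tcf7 window has an atg before its listed start, with a reading frame open to its end. It may thus be coding sequence of a longer transcript, and its 0 does not speak for a promoter farther upstream. Of 32851 promoter windows of that length, 16.9% hold at least 1 match. Windows were listed for 32 of the 50 Wnt pathway genes, and 8 of these genes, or 25.0%, have a match in at least 1 window, against 18.9% of all 27025 genes listed. Besides Sp5 these were Dkk1, Fzd7, Wnt3, Wnt11, Wnt5b, Lef1 (at another of its 4 starts) and Tcf7l2, of which Dkk1, Lef1 and Sp5 were called higher and Wnt11, Wnt5b and Tcf7l2 lower. A match is only a stretch of letters and shows no binding.

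Different probes of a gene did not always give the same ratio. Among 14 Wnt pathway genes with more than 1 tested probe, probe ratios spread by over 1 in 7 and by over 1.5 in 4, which are Fzd7, Ctnnb1, Wnt6 and Tcf7l2, chosen for display after their values were seen. In Fzd7 the brightest probe stood at 0.32 ± 0.016, while a probe on chromosome 1 from 59735681 to 59735740, upstream of it in the listed direction, stood at -2.47 ± 0.068 and would be called lower. In Ctnnb1 both probes for the RefSeq transcript stood below 0, at -0.38 and -0.60, while a probe drawn from a cDNA clone, on chromosome 9 from 120654491 to 120654550, stood at 1.49 ± 0.0036. In Wnt6 the brightest probe gave 0.06 ± 0.043 and its neighbour, on chromosome 1 from 75024567 to 75024626, gave 1.76 ± 0.047. In Tcf7l2, 3 RefSeq probes ran from -1.30 to -0.85, and a probe from another cDNA, on chromosome 19 from 55839897 to 55839956, gave 0.21 ± 0.12. The probes of these 4 genes thus differed by more than the arrays did, and which transcripts each probe reads was not determined.

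The first 30 of the 60 bases of these probes are printed so that the transcripts they read can be looked up, with the brightest probe of each gene first.
Fzd7 brightest: aagggaaggtgaacttcaaagtgattctgg
Fzd7 other: agccccgactttacagtcttcatgatcaag
Ctnnb1 brightest: ttctaagaaccgagtaatggtgtagaacac
Ctnnb1 cDNA clone: aagggacatggagtgtaatgtactgttgtg
Wnt6 brightest: attcccctgaaaggccctttgctagttctg
Wnt6 other: ttcctcagaattactgggatggatgggtga
Tcf7l2 brightest: gatttgtatgtagttttaatgtcacctata
Tcf7l2 other cDNA: gactgataaagaaaacaaaagcggaacaaa

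**Figure D4:**
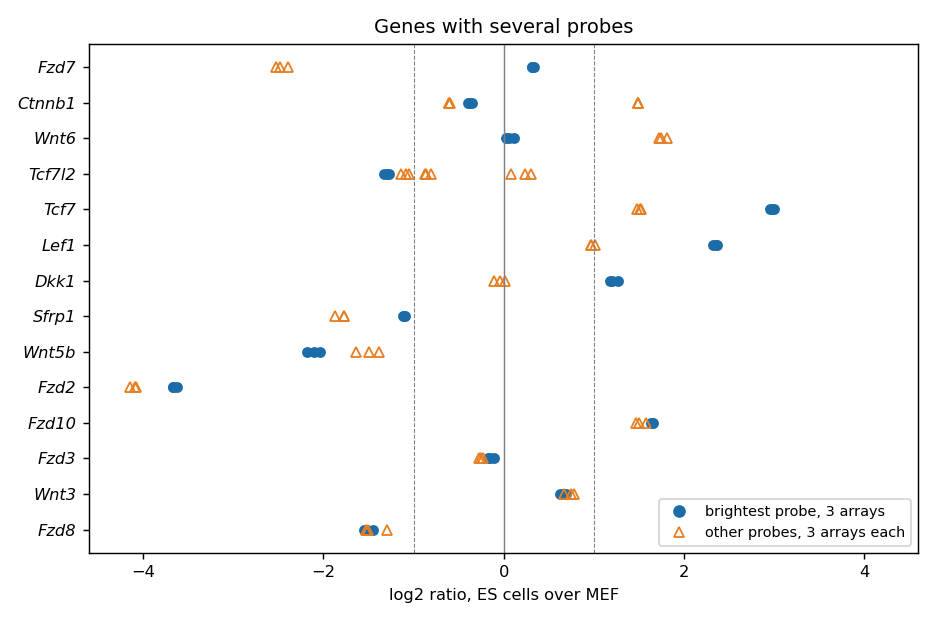
Log2 ratio, ES cells over MEF (horizontal axis), on each of 3 arrays for every tested probe of the 14 Wnt pathway genes with more than 1 tested probe, with filled circles for the brightest probe and open triangles for the others, ordered by the spread between probes. Fzd7 has the widest spread, with means of 0.32 and -2.47, while the probes of Fzd10, Fzd3, Wnt3 and Fzd8 nearly coincide.

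Other genes of the pathway were read from 5 lists, some genes standing in 2 of them. Among genes that handle the ligand or amplify its signal, 3 of 15 tested were called higher in ES cells and 6 lower, against 20.3% and 22.4% of all genes. Wls (named Gpr177 in the files), the carrier that takes Wnt proteins to the cell surface, stood at -5.02 ± 0.017, and Lgr5, an R-spondin receptor and Wnt target, at -4.62 ± 0.055, with signal well above background in ES cells on 2 of 3 arrays. The R-spondin gene Rspo1 stood at 1.74 ± 0.029. Other R-spondin genes went the other way, with Rspo2 at -3.76 ± 0.0016 and Rspo3 at -3.80 ± 0.039, both called lower. Rspo3 was well above background in ES cells on 2 of 3 arrays, and Rspo4 was too dim to be tested. Notum, which encodes an enzyme that strips the lipid from Wnt and was named through its accession, stood at 1.72 ± 0.051.

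Of 25 cytoplasmic genes, 2 were called higher in ES cells, where 20.3% of all genes were, and 5 lower, near the 22.4% of all genes. Dact2, a Dishevelled-binding protein gene, stood at 2.55 ± 0.021 and Frat2, whose product binds and inhibits the kinase Gsk3, at 1.47 ± 0.13. The Dishevelled antagonist gene Nkd1 stood at -3.05 ± 0.051 and Dact1 at -1.54 ± 0.026. Of 18 nuclear partners, 4 were called higher and 5 lower, both near the shares of all genes. The co-repressor genes Tle4, at 3.35 ± 0.013, and Tle2, at -3.004 ± 0.0096, lay at the ends of that list, next to the kinase gene Nlk at 1.66 ± 0.024 and the β-catenin co-activator gene Bcl9l at -2.05 ± 0.045.

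Among 22 planar polarity and other β-catenin-independent genes, 10 were called lower in ES cells and 1 higher, where 22.4% and 20.3% of all genes were. The gene called higher was Celsr1, a polarity cadherin, at 3.99 ± 0.032. Camk2d, a calcium-dependent kinase gene, stood at -3.74 ± 0.045 and the formin gene Daam2, which links Dishevelled to the cytoskeleton, at -3.20 ± 0.15. Of 16 tested genes known to respond to Wnt in some tissue, 8 were called lower, against 22.4% of all genes. Another 3 were called higher, near the 20.3% of all genes. Tbx3, a T-box factor gene of self-renewal, stood at 1.78 ± 0.0087, with Notum next, while Id2, an inhibitor of helix-loop-helix factors, at -3.98 ± 0.013, and Lgr5 were lowest. Medians over the tested genes were -0.21 for ligand handling, -0.39 for the cytoplasmic genes, -0.09 for nuclear partners, -0.98 for polarity genes and -0.57 for responding genes, against -0.05 for all genes.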

How the data were processed

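The members and gene lists were chosen with earlier results of these data known. Scans were quantified by the authors in Agilent Feature Extraction 9.5.3.1, per the file headers; the deposited mean and background intensities are raw brightness, and processed intensities had background and dye corrections. The deposited log10 ratio is MEF over ES cells. The authors' deposited table of log2 values equals ES cells over MEF of the processed intensities, to 0.01, for 100% of probes; its column medians of 0.213, 0.0859 and -0.143 show no centring.

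Mean signals and median backgrounds were corrected by normexp (offset 50, which shrinks ratios of dim genes) and loess in limma 3.58.1 (R 4.3.3), with control spots at weight 0. Of 43379 gene spots an array, 117 to 144 flagged as outliers were dropped before averaging within probes; no Wnt pathway gene lost an array. The brightest of a gene's probes stood for it and was tested if well above background in either channel on all 3 arrays (over 0.5 of its spots). Log2 ratios were tested against 0 (lmFit and eBayes, intercept only, Benjamini-Hochberg over 19663 genes), and called at an adjusted p under 0.05 and at least 2-fold. Signals printed are per channel after loess and Aquantile. Every Wnt pathway gene could be named; all array values were given for those called at 4-fold or more or with signal in 1 cell type alone, and for others where a result turned on them. Of each other list the 2 highest and 2 lowest called genes were named. Tcf7l1, Rspo2, Rspo3 and Rspo4 were named besides, as relatives of genes described. Median gene spot signals were 398 to 421 (ES cells) and 381 to 391 (MEF) over backgrounds of 45 to 56 and 38 to 41.5; the number of arrays limits the precision. The procedure was tested on simulated arrays in which only a small share of probes differed between the channels. In the data 42.8% of genes tested were called, a case that this simulation does not cover. Of the neural and glial markers, 1 is not reported here.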

Additional observations from a re-analysis of the deposited data

How the results depend on the processing

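Gene by gene, 12 alternatives were compared, leaving out limma's test against the fold minimum and the setting with no fold minimum. Of the 27 called Wnt pathway genes, 22 kept their call and direction under each of these that gave them a value. Of the 18 that were not called, 12 stayed so. The count of genes called lower was 18 to 20 under all alternatives with a fold minimum (19 to 20 leaving out 1 replicate) and 28 with no fold minimum. The count of genes called higher was 5 to 10 under most (7 to 8 leaving out 1 replicate), but 11 with processed signals and in the authors' value table, and 16 with no fold minimum. The median ratio was -0.56 with normexp offset 0, -0.46 with processed signals and in the authors' table, -0.33 with median centring, -0.30 with no filter on dim probes, -0.63 for genes above background in both channels and -0.73 for the mean of all probes, and -0.54 to -0.52 leaving out 1 replicate. Median centring also moved the median of all genes, to 0.11 against -0.05. Fzd7 changed direction to a called -1.07 with the mean of all probes. Wnt8a was called without replicate 1 and Wnt10b was not called without replicate 2. Ratios of dim genes depended most on the signal used, such as Wnt10b, Wnt3a and Sp5; the cause was not tested. A slide block was not run, since all arrays lay on 1 slide. No paired analysis was possible because each array compares its ES cell replicate with the same MEF label and there is no other group. Signal near background leaves Dkk4, Wnt2b, Wnt7a, Wnt8b and Wif1 without a ratio.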
